A study of Mus musculus with 23 samples.

Results

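The H3K9me3 profile of mouse CD4+ naive T cells was described here across genes and chromosomes, from every interval of the merged H3K9me3 peak list on chromosomes 1 to 19 and X. That rule took 16161 of the 16738 intervals in the list, or 16161 of the 29404 intervals in the 4 peak lists of the series, and used no measured level. The 577 H3K9me3 intervals left aside lay on Y (313), the mitochondrial sequence (2) and unplaced or unlocalised sequences (262). The series holds 23 CUT&Tag samples, in which an antibody directs a transposase to cut and tag DNA beside its target. The H3K9me3 list is named by 4 samples: 2 of genotype WT and 2 of genotype DDX55 KO, all untreated cells of spleen and pLN. DDX55 is a DEAD-box RNA helicase. The sources used here do not state the strain, the age, the cells in which Ddx55 was deleted or any pooling of mice. The other lists described beside it are named by 4 RNA polymerase II samples and 4 DDX55 samples, 2 of each genotype. The R-loop list is named by 8 samples, 2 of each genotype without treatment and 2 of each with RNase H, an enzyme that degrades the RNA of DNA-RNA hybrids. Each list holds positions only, for both genotypes together. A peak therefore has no height and no value per sample, depth is unknown, and no difference between WT and DDX55 KO cells or between replicates could be measured.

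H3K9me3, the trimethylated form of lysine 9 of histone H3, is written by enzymes such as SETDB1 and the SUV39H pair and is read by HP1 proteins. It marks constitutive heterochromatin at pericentromeric repeats and silenced transposable elements. KRAB zinc finger proteins bring SETDB1 to such elements through TRIM28, and the mark is also known from the 3' exons of zinc finger genes, imprinted control regions and germline genes that stay silent in somatic cells. The labelled cell type was checked against 14 marker genes of naive CD4 T cells, such as Il7r and Tcf7. An RNA polymerase II peak lay in 13 of the 14, against 1 of 7 B cell, 2 of 7 myeloid, 0 of 5 CD8 T and NK cell and 2 of 5 erythroid markers. Among all protein-coding genes 37% had such a peak in or within 3000 bp of the gene. H3K9me3 lay in 1 naive marker, Cd4, and in Fcgr3 and Klrb1c among the other markers.

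Sequences from RefSeq (GRCm38.p6, the coordinates of mm10) are printed for 6 promoter windows that lay wholly inside an H3K9me3 peak, because they show which kinds of gene start carried the mark. A window runs from 250 bases before the annotated start to 50 bases after it, 5' to 3' on the gene's strand, and capitals mark CpG dinucleotides. Gm40862 (chr12:23634343-23634642, minus strand) and Gm40847 (chr12:18853705-18854004, plus strand) were 99% identical to each other. They held 41 and 42 CpG.
Gm40862: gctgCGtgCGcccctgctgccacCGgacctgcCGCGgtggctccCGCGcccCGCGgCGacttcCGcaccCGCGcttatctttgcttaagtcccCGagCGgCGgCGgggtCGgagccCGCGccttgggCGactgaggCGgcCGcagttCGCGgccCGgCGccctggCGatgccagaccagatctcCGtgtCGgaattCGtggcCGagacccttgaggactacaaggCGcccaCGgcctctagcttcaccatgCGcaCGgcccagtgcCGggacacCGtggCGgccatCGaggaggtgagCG
Gm40847: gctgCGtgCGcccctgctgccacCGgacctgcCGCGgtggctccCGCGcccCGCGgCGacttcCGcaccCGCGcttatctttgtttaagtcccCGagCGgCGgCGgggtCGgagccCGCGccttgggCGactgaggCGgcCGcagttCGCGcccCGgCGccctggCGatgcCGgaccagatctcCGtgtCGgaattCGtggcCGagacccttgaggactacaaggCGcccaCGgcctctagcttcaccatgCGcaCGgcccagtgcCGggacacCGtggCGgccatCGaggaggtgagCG
Zfp981, a zinc finger gene (chr4:146514670-146514969, plus strand), and Sp110, which encodes a nuclear body protein (chr1:85598761-85599060, minus strand), had 4 and 5 CpG and no near-identical window elsewhere in the table.
Zfp981: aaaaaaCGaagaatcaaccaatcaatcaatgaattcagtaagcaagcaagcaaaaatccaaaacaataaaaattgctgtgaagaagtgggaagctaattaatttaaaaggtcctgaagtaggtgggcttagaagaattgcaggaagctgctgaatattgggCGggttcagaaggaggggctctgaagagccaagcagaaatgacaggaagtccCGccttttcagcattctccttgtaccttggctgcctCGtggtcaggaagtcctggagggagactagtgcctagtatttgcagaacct
Sp110: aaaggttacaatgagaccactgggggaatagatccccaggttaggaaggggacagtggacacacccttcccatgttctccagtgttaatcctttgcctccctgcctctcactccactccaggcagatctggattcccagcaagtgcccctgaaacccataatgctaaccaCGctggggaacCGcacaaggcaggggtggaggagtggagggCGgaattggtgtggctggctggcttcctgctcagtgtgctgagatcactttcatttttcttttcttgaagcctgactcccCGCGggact
Speer4c, of a testis-expressed family (chr5:15714222-15714521, minus strand), had no CpG and 7 other windows of the table at 90% identity or more, the closest Speer4e at 98.7%. Vmn1r149, a vomeronasal receptor gene (chr7:22438180-22438479, minus strand), had 2 CpG and 16 such windows, the closest Vmn1r101 at 100%.
Speer4c: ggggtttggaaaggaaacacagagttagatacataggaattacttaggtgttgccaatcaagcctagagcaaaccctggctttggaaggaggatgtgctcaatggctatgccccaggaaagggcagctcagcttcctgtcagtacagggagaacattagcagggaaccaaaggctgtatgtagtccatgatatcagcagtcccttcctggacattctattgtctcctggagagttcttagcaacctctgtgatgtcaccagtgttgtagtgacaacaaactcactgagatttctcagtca
Vmn1r149: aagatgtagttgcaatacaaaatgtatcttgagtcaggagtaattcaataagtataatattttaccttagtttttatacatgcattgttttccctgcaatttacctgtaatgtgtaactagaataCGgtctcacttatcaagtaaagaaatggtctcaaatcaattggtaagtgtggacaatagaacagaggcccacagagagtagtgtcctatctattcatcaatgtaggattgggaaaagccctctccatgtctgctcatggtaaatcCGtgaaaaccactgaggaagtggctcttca
The CpG-dense pair and the CpG-poor windows were thus both covered, and in 4 of the 6 a near-identical copy makes the marked member of the family uncertain.

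Among small RNAs, 1 of 1005 miRNA hairpins in the RefSeq table lay in a peak, and 30 (2.99%) had a peak within 10 kb. The mature form of that miRNA is printed because it was the single one marked, with the seed, bases 2 to 8, in capitals. It is encoded by Mir8117 at chr5:50252823-50252843 (GRCm38.p6, plus strand), in a peak of 612 bp.
mmu-miR-8117: gCUCGUGUggaacagaagggg

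The 16161 peaks covered 13.1 Mb, or 5.00 kb per Mb of the sequence between the first and last annotated gene or peak of each chromosome. Peak width ran from 157 bp to 13766 bp, with a median of 607 bp, and 5% of peaks were wider than 1935 bp. No neighbouring intervals overlapped.

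Chromosome 4 had the most H3K9me3 for its length and chromosome 19 the least. Chromosome 4 carried 1408 peaks and 7.96 kb covered per Mb, and chromosome 19 carried 116 peaks and 1.51 kb per Mb. The median of the 20 chromosomes was 4.74 kb per Mb. Chromosomes 7 (7.21 kb per Mb), 12 (6.62), 3 (6.40), 14 (6.33) and 1 (6.32) followed chromosome 4. Chromosomes 11 (2.54), 9 (2.88), X (3.47), 15 (3.51) and 18 (3.51) stood next to chromosome 19 at the low end. With 1 merged list there is no spread over samples, so neighbours in this order cannot be told apart beyond their values. Median peak width hardly varied, from 577 bp on chromosome 10 to 669 bp on chromosome 7, so the chromosomes differed in the number of peaks and not in their typical width.

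**Figure D1:**
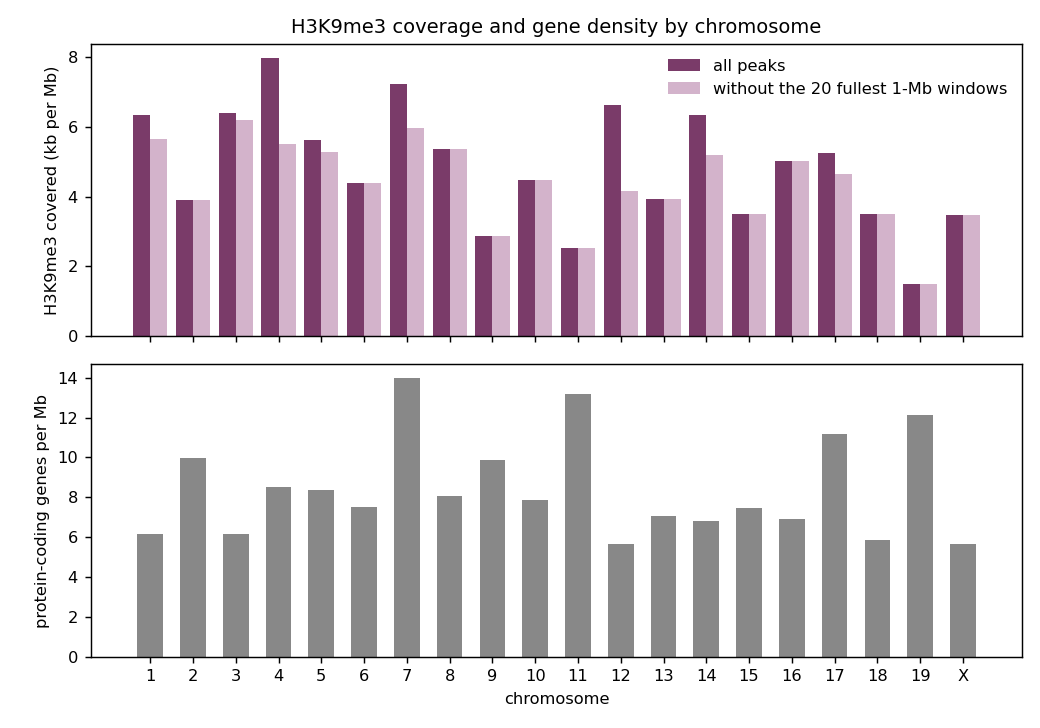
Kilobases covered by H3K9me3 per Mb of each chromosome (upper panel, bars from 0), for all peaks and without the 20 windows of 1 Mb with most peaks, above protein-coding genes per Mb (lower panel). Each bar is 1 value from the merged list with no error; chromosome 4 is highest with all peaks at 7.96 kb per Mb and chromosome 3 highest without the 20 windows at 6.20.

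A few windows made much of this order. The 20 windows of 1 Mb with most peaks held 1156 peaks, 7.15% of the total. Without them chromosome 4 fell from 7.96 to 5.51 kb per Mb and chromosome 12 from 6.62 to 4.15, and chromosome 3 came first at 6.20. On chromosome 12 the 5 fullest windows held 34.8% of its peaks, and on chromosome 19 they held 47.4%. Among the other crowded windows, the one starting at 85000001 on chromosome 1 held 87 peaks, the one at 42000001 on chromosome 14 held 62 and the one at 22000001 on chromosome 7 held 57. Windows with no peak at all were 22.5% of chromosome 3 and 50% of chromosome 19.

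Gene-dense chromosomes were not uniformly poor in the mark. Over the 20 chromosomes kb per Mb and protein-coding genes per Mb had Pearson's r of −0.22 and Spearman's rho of −0.16, and kb per Mb and RNA polymerase II peaks per Mb had r of −0.36 and rho of −0.35. Without chromosomes 4 and 19 r was −0.09 for genes and −0.27 for RNA polymerase II, and over the 19 autosomes it was −0.28 and −0.53. Chromosome 7 had the most genes per Mb (14.0) together with the second-highest H3K9me3 coverage, while chromosome 11, with 13.2 genes and 8.25 RNA polymerase II peaks per Mb, was the second lowest. Chromosome X was low in both H3K9me3 and RNA polymerase II (1.31 peaks per Mb). These correlations are descriptions over chromosomes that share the same libraries. Along the chromosomes peaks followed no steady gradient. With each chromosome cut into 10 equal pieces from the start of its coordinates, piece 2 held 14.7% of peaks, the most, followed by piece 6 with 12.7% and piece 5 with 11.6%. Piece 1 held 10.4%, and piece 9 held 6.98%, the fewest.

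Neighbouring peaks were separated by a median of 34.8 kb over 16141 gaps. The spacing was uneven, with 10% of gaps under 5.61 kb, 25% over 91.9 kb and a longest gap of 9708.8 kb. The median gap was 20.4 kb on chromosome 12 and 87.5 kb on chromosome 19. Of all peaks, 10303 (63.8%) stood alone, with no other peak within 10 kb, and 1731 pairs held 21.4% of peaks.

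Gaps of 4 to 8 kb were more frequent than shorter or longer ones. There were 600 gaps between 6 and 7 kb, against 221 between 3 and 4 kb and 286 between 10 and 11 kb. Per kb of gap length this gave 239 gaps from 1 to 4 kb, 500.5 from 4 to 8 kb, 302.75 from 8 to 12 kb and 239.25 from 12 to 16 kb. The RNA polymerase II list, with 10870 gaps, had 169, 228, 183 and 160 gaps per kb in those ranges, a smaller rise at the same place. It also had 440 gaps under 1 kb, where H3K9me3 had 154. The 2002 H3K9me3 pairs 4 to 8 kb apart were found on all 20 chromosomes, 12.4% of gaps in all, from 6.41% on chromosome 9 to 17.9% on chromosome 12. Only 18.5% of these pairs lay in runs of peaks, and their peaks had a median width of 715 bp. Gap length alone says nothing of the sequence between the peaks, which was not analysed here.

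**Figure D2:**
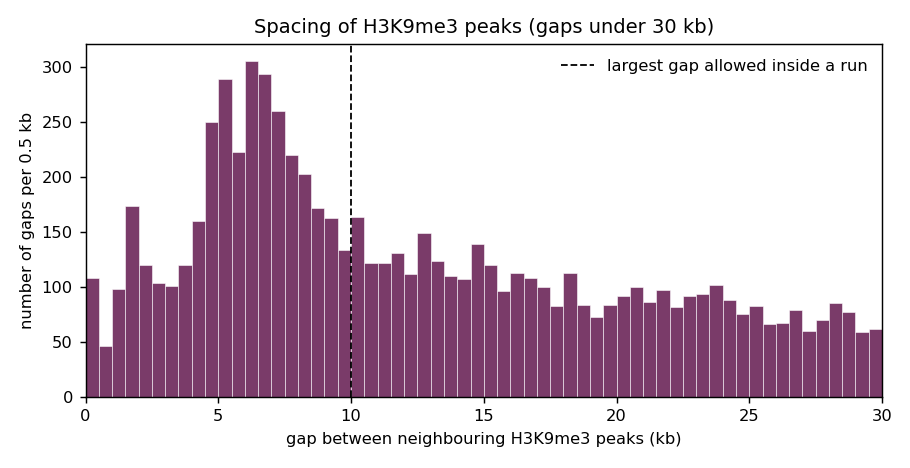
Number of gaps between neighbouring H3K9me3 peaks (y axis, per 0.5 kb of gap length) against gap length in kb (x axis, up to 30 kb), over the 20 chromosomes. The counts are highest between 4 and 8 kb, with 2002 gaps there, and the dashed line marks the largest gap allowed inside a run, 10 kb.

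Runs, defined as 5 or more peaks with every gap at most 10 kb, numbered 110. They held 882 peaks, 5.46% of the total, and 9.25% of covered bp in 0.193% of the sequence, with a median length of 37.1 kb. Peaks in runs had a median width of 1018 bp, and peaks that stood alone 581 bp. Chromosome 4 had 21 runs, 7 had 18, 12 had 16, 14 had 13, 5 had 10 and 1 had 7, while 15, 18 and 19 had none. Over chromosomes, kb per Mb and the share of peaks in runs had r of 0.73 and rho of 0.70, or 0.66 and 0.60 without chromosomes 4 and 19. Both quantities come from the same peaks, so this is a description of how they were arranged.

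The 10 runs with most covered bp lay on chromosomes 1, 4, 7, 9 and 11. The run with most covered bp was at chr1:84974991-85209307, with 39 peaks and 56066 bp (23.9% of its length), over Gm38510, A530032D15Rik, A530040E14Rik and 6 pseudogenes. A second run beside it, chr1:85234501-85311303, had 13 peaks and 33732 bp (43.9%) over Gm38510 and C130026I21Rik. The third, chr1:85525207-85657690, had 20 peaks and 32718 bp over Gm7592, Sp110, Sp140 and Sp100. Smaller runs at chr1:85322251-85344766 (8853 bp) and chr1:85448178-85507235 (11367 bp), both over Gm7592, lay between the second and the third. On chromosome 7 a run at chr7:59718876-59806996 had 13 peaks and 27295 bp inside Snhg14, the host of the Prader-Willi snoRNA array. Chromosome 4 had 4 of the 10 runs with most covered bp. They were chr4:147163057-147249471 (27207 bp, over Zfp978 and Zfp991), chr4:145820892-145899782 (26672 bp, over 3 pseudogenes), chr4:147381540-147453156 (26085 bp, over Zfp978 and Zfp982) and chr4:146425456-146493787 (24359 bp, over Zfp992 and the pseudogene Vmn2r-ps16). On chromosome 11 a run at chr11:3100357-3199879 had 18 peaks and 26878 bp over Sfi1, which encodes a centrosomal protein, and it met 10 RNA polymerase II and 9 DDX55 peaks. The run at chr9:3000003-3038290 had 6 peaks over 24437 bp, 63.8% of its length, with no annotated gene, and included the widest peak of all (13766 bp). Of the 110 runs, 90 overlapped a gene, 62 a protein-coding gene and 57 a pseudogene.

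Most of the mark lay outside genes. Sequence outside annotated genes held 70.6% of covered bp and 52.4% of the sequence (6.73 kb per Mb). Protein-coding genes held 19.7% of covered bp and 39.4% of the sequence (2.50 kb per Mb). Long non-coding RNA genes were at 3.96 kb per Mb. Pseudogenes, copies of genes that have lost the coding frame, held 3.81% of covered bp in 1.01% of the sequence, at 18.9 kb per Mb, and the other RNA genes were at 15.8. A base in several genes was counted once, in the order protein-coding, long non-coding RNA, pseudogene. The 11699 peaks with their midpoint outside genes had a median distance of 224 kb to the nearest protein-coding gene, and 10.9% of them lay over 1000 kb away.

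A gene was called marked when at least 1 bp of a peak lay in its annotated span. By that rule 1174 of 21631 protein-coding genes were marked (5.43%, exact 95% interval 5.13 to 5.74), 551 of 12697 long non-coding RNA genes (4.34%), 552 of 10508 pseudogenes (5.25%) and 64 of 4196 other RNA genes (1.53%). These shares are the background for every count of genes given here, and the intervals cover counting error only. Of the marked protein-coding genes 706 had 1 peak, 70 had 10 or more, and 49 had more than 10 kb covered. Of the 64 marked other RNA genes, 45 were covered over 50% or more of their span and 41 entirely. The counts were 141 and 32 of 552 marked pseudogenes, and 25 and 4 of 1174 marked protein-coding genes. These classes differ in length, with median spans of 94, 1931.5 and 71524 bp among their marked members.

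The share of genes marked rose with gene length. Of 227 protein-coding genes longer than 500 kb, 163 (71.8%) were marked, against 16.5% from 100 to 500 kb, 4.31% from 10 to 100 kb and 1.99% up to 10 kb. In kb per Mb of gene, coverage was highest above 500 kb, at 4.56, and did not rise steadily with length, with 1.95 from 100 to 500 kb, 2.24 from 10 to 100 kb and 3.96 up to 10 kb. A longer gene offers more room for a peak, so the share marked depends on length as well as on density.

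Of the 20 protein-coding genes with most covered bp, 10 spanned up to 500 kb and 10 more than that, and the shorter ones led. Zfp978 on chromosome 4 (chr4:147124882-147392027) had 41 peaks and 62028 bp, 23.2% of its span, and Zfp993 beside it (chr4:146512849-146991471) had 31 peaks and 41686 bp. Both are annotated as zinc finger genes. Gm38510 on chromosome 1 (chr1:85155201-85309015) had 22 peaks and 42351 bp, and Gm7592 (chr1:85326832-85555681) had 19 peaks and 29626 bp. Gm40862 on chromosome 12 (chr12:23396445-23634845) had 27 peaks and 30408 bp. Gm40864 (18266 bp), Gm40847 (14675 bp), Rex2 (14900 bp) and C130026I21Rik (18353 bp, 44.1% of its span) also spanned less than 500 kb. These 9 genes had no RNA polymerase II peak in the gene. C130026I21Rik lies inside the span of Gm38510, and Rex2 overlaps Zfp993, so a covered base in an overlap counts for each.

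The genes over 500 kb included several with roles in neurons. Whether such roles are more frequent here than among all 227 protein-coding genes of that length was not tested. Lrrc4c, which encodes a synaptic adhesion protein, had 28 peaks and 22055 bp over 1313504 bp of chromosome 2. Ptprd, a receptor tyrosine phosphatase of synapses, had 29 peaks and 21366 bp, which was 0.941% of its span. Cdh12, a brain cadherin (18482 bp), Naaladl2 (16844 bp), Lrp1b, a lipoprotein receptor relative (15878 bp), Lsamp, a limbic adhesion protein (15554 bp), Iqcm (15159 bp), Sntg1, a syntrophin (14230 bp), Dpp10, a potassium channel partner (13130 bp), and Agbl4, a tubulin-modifying enzyme (13014 bp), completed the 10 genes over 500 kb among the top 20. In none of these 10 did the peaks cover 3% of the gene. Sfi1, which spans 71498 bp, was the exception among the 20. It had 13 peaks, 18998 bp and 8 RNA polymerase II peaks in or within 3000 bp of the gene. The 20 genes held 16.8% of all bp covered in protein-coding genes, summed gene by gene, so that bases in overlapping genes count for each.

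**Figure D3:**
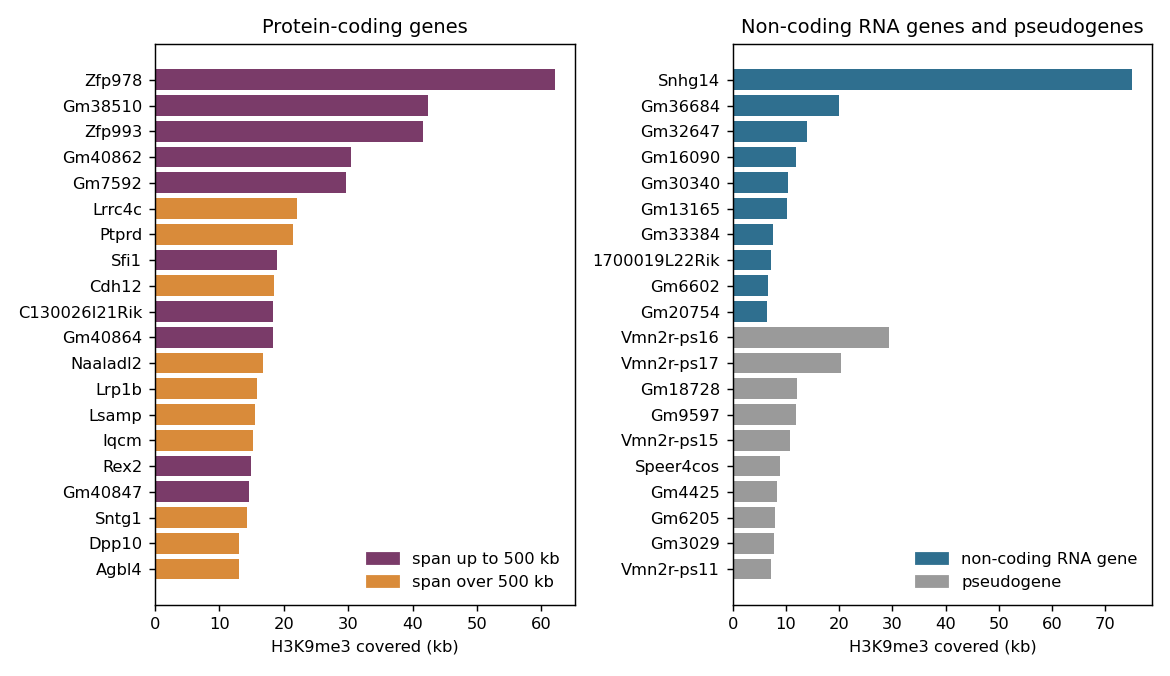
Kilobases covered by H3K9me3 (x axis, bars from 0) in the 20 protein-coding genes with most covered bp (left, coloured by span) and in the 10 non-coding RNA genes and 10 pseudogenes with most (right). Each bar is 1 value from the merged list with no error; Snhg14 has 75137 bp and Zfp978 62028 bp, and 10 of the 20 protein-coding genes are longer than 500 kb.

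Several chromosomes had their largest protein-coding total in a gene outside that list. They were Adgrl3 on 5 (12567 bp), Luzp2 on 7 (12392 bp), Cntn5 on 9 (7618 bp), Nkain2 on 10 (12239 bp), Tmem267 on 13 (7145 bp), Pcdh9 on 14 (12328 bp), L3mbtl4 on 17 (5823 bp), Cyp2c39 on 19 (9277 bp) and Il1rapl1 on X (5430 bp). Adgrl3, Cntn5, Nkain2, Pcdh9 and Il1rapl1 are known for roles in the nervous system, which were not compared with those of other genes. The annotated span of Cyp2c39, a drug-metabolising cytochrome P450, held 10.5% of all bp covered on chromosome 19. That span contains Cyp2c38, whose 2148 covered bp count for both. On chromosome 18 Gm37013, a span that runs across the clustered protocadherins and overlaps 70 other genes, had 11754 bp.

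Among all genes of any class, the long non-coding RNA gene Snhg14 (chr7:59272737-60450177) had the most, 75137 bp in 50 peaks. Snhg14 is transcribed from the paternal chromosome in neurons and hosts snoRNA arrays. Of 206 snoRNA genes inside it 37 were marked, which is most of the 43 of 1340 snoRNA genes marked anywhere. The other non-coding genes with most were Gm36684 on chromosome 17 (20052 bp in 19 peaks), Gm32647 (13882 bp), Gm16090 (11914 bp in 2 peaks), Gm30340 (10394 bp) and Gm13165 (10218 bp). Among other RNA types, 13 of 93 miscellaneous RNAs, 5 of 1003 snRNA genes and 2 of 408 tRNA genes were marked.

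Pseudogenes of vomeronasal type 2 receptors on chromosome 4, which lie among its zinc finger genes, had the most covered bp of their class. Vmn2r-ps16 had 29352 bp in 20 peaks and Vmn2r-ps17 20396 bp in 18 peaks. Gm18728 (12118 bp), Gm9597 (11799 bp), Vmn2r-ps15 (10674 bp in 9 peaks), Speer4cos (8854 bp), Gm4425 (8365 bp), Gm6205 (7872 bp), Gm3029 (7774 bp) and Vmn2r-ps11 (7141 bp) followed. Apart from Gm4425, Gm6205 and Gm3029 their spans overlap other genes, and a peak in an overlap counts for each.

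By share of the span covered, short genes with 1 peak came first. LOC100504180 (3430 bp), Spin2f (746 bp), LOC115488002 (642 bp) and Krtap6-3, a hair keratin-associated protein gene (511 bp), were covered entirely. Crygf, a lens crystallin gene, was covered over 91.7%, Scgb1b19, a secretoglobin gene, over 90.1% and Vmn1r160, a pheromone receptor gene, over 89.9%. LOC100504180 had an RNA polymerase II peak, and the other 6 had none.

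Peaks lay in the long spans of some antigen receptor loci and in none of the annotated segments. The immunoglobulin kappa locus Igk (chr6:67555636-70726754), which T cells do not use, had 53 peaks and 39769 bp. The immunoglobulin heavy chain locus Igh had 5 peaks and 5008 bp, and it held or neighboured 97 R-loop peaks. The T cell receptor alpha locus Tcra had 2 peaks and 972 bp, beside 14 RNA polymerase II peaks. In the annotation class that holds Igk, 4 of 12 genes were marked. Of 510 annotated antigen receptor segments 0 were marked, an exact 95% upper limit of 0.72%. Segments are short, with a median span of 458 bp, and of all protein-coding genes up to 10 kb 1.99% were marked.

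Among the gene families, whose lists were chosen with earlier results of these data known, zinc finger genes had the most marked members. H3K9me3 lay in 109 of 425 (25.6%, exact interval 21.6 to 30.1) against the 5.43% of all protein-coding genes, through 241 distinct peaks and 23.3 kb per Mb. The median covered length of a marked member was 1454 bp, against 1160 bp over all marked protein-coding genes. Chromosome 4 had 20 of its 30 members marked and 188351 of the 326426 bp, 57.7%. These bp and the kb per Mb were summed gene by gene, so a base in overlapping members counts for each. Zfp991 and Zfp988, for example, lie inside the span of Zfp978 on chromosome 4. The other chromosomes had 89 of 395 marked, including 16 of 46 on chromosome 17, 12 of 42 on chromosome 13, 10 of 21 on chromosome 9 and 14 of 105 on chromosome 7. None of the 17 on chromosome 6 or the 11 on chromosome 15 was marked. An RNA polymerase II peak lay in or within 3000 bp of 35 of the 109 marked members (32.1%) and 151 of the 316 unmarked ones (47.8%).

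In zinc finger genes the mark was densest at the end of the gene, though most of the covered bp lay elsewhere. The strand was known for 353 of them and for 16921 other protein-coding genes with a RefSeq promoter window. H3K9me3 covered 2.40 kb per Mb in the 3 kb before the start of zinc finger genes, 11.3 in the first 3 kb, 61.2 in the last 3 kb and 24.2 in the 3 kb after the end. In the other genes the same 4 values were 1.99, 2.46, 2.86 and 3.01. Without chromosome 4 the zinc finger values were 0, 4.03, 51.9 and 12.5, so the position did not rest on that cluster. A peak lay in the last 3 kb of 63 zinc finger genes (17.8%) on 11 chromosomes and in the first 3 kb of 11, with 8 in both sets. In 41 of the 90 marked members with known strand the last 3 kb held over 50% of covered bp, and in 28 they held all of it. Summed gene by gene over the 353 genes, the last 3 kb held 64.7 of the 224 kb covered. Zfp978, the zinc finger gene with most covered bp (62028 bp), Zfp991 and Zfp992 were not among the 353, so these values give no position for them. Zfp993, with 41686 bp covered, had 0 bp in its last 3 kb. Zinc finger proteins usually carry their DNA-binding fingers in the final coding exon, although the gene table used here gives no exons.

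**Figure D4:**
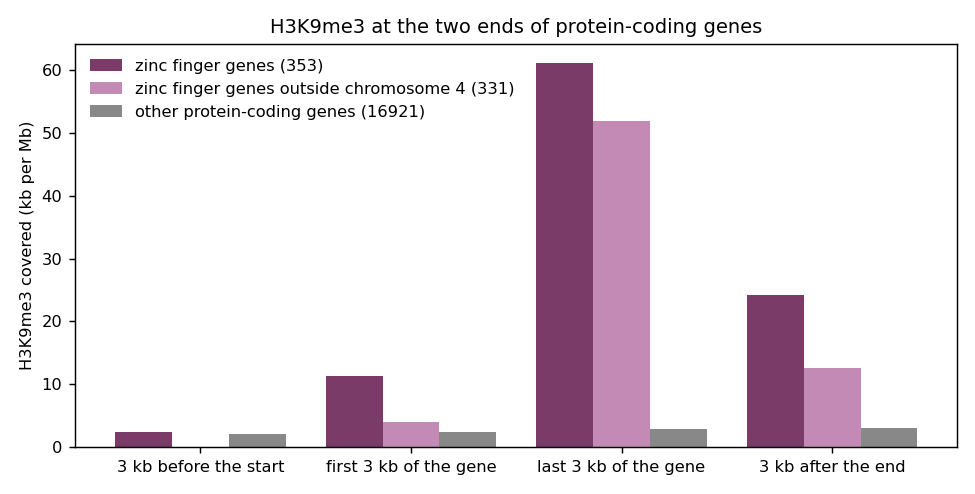
H3K9me3 covered bases in kb per Mb (y axis, bars from 0) in 4 windows of 3 kb at the start and end of genes, for zinc finger genes, zinc finger genes outside chromosome 4 and other protein-coding genes, from 1 merged list with no error. The last 3 kb of zinc finger genes stands at 61.2, or 51.9 outside chromosome 4, against 2.86 in other genes.

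Single genes show the arrangement. Zfp433 (chr10:81704747-81721976, plus strand) had 2811 of its last 3000 bp covered and 0 of its first. Zfp97 on chromosome 17 had 2533 bp covered there, Zfp936 on chromosome 7 had 2289 bp, and Zfp944 on chromosome 17 had 1834 bp, each with 0 in the first 3 kb and no RNA polymerase II peak. Zfp180 (2412 bp), Zfp810 (2296 bp) and Zfp110 (2161 bp) had the mark at the end together with an RNA polymerase II peak over the promoter window. Zfp810 and Zfp110 had 0 bp in the first 3 kb. Zfp180 also had 341 bp covered there, and 44 bp of its promoter window lay in that H3K9me3 peak. Of the 63 genes with a peak in the last 3 kb, 18 (28.6%) had such a peak over the promoter. With each of the 90 marked zinc finger genes cut into 10 equal pieces from start to end, piece 10 held 24.5% of their covered bp, piece 9 held 20.2%, piece 8 held 13.8% and piece 1 held 7.93%. Over all 921 marked genes with known strand piece 1 held 8.01% and piece 10 held 11.2%.

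Pheromone receptors of type 2 were marked in 29 of 123 cases through 36 distinct peaks, including Vmn2r13 (2039 bp) and Vmn2r115 (2034 bp). Unlike in the zinc finger genes, coverage was not highest in the last 3 kb. The 116 with known strand were at 18.6 kb per Mb before the start, 5.70 in the first 3 kb, 8.09 in the last 3 kb and 13.1 after the end. Those values rest on few genes with a peak, 8, 4, 5 and 5 in the same order. Only 5 of 230 type 1 receptors and 14 of 1106 olfactory receptors were marked, or 2.17% and 1.27%. These are short genes, with median spans of 924 and 950 bp, and of all protein-coding genes up to 10 kb 1.99% were marked. In covered length they stood at 7.08 and 4.57 kb per Mb, against 3.96 over all protein-coding genes up to 10 kb.

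Other clustered families also had shares above the 5.43% of all protein-coding genes, some of them through fewer peaks than marked members. UDP-glucuronosyltransferase genes, which conjugate drugs and bilirubin, were marked in 12 of 22 cases through 6 distinct peaks, because the spans of 9 marked Ugt1a genes overlap. Ugt1a5, Ugt1a6a, Ugt1a6b, Ugt1a7c, Ugt1a8, Ugt1a9 and Ugt1a10 had the same 4374 bp, Ugt1a2 had 3036 bp and Ugt1a1 2904 bp. Clustered protocadherins, adhesion proteins of neurons, were marked in 21 of 57 cases through 12 peaks, with 2270 bp in Pcdha1 and 1449 of 2340 bp in Pcdhb8. Skint genes, which encode thymic and skin proteins of the butyrophilin kind, were marked in 5 of 11 cases through 31 peaks, 18 of them in Skint5 (9520 bp) and 9 in Skint6 (6188 bp). All 3 genes of the Sp100 family were marked, with 12678 bp in Sp140, 11661 bp in Sp110 and 1276 bp in Sp100. Each of the 3 also had RNA polymerase II peaks in or within 3000 bp of the gene, 1, 1 and 4 in number. Major urinary protein genes were marked in 6 of 22 cases, and cytochrome P450 genes in 14 of 99, led by Cyp2c39 (9277 bp) and Cyp3a41b (4198 bp). Reads from near-identical members of such clusters can be placed on the wrong copy, so which member is marked is uncertain.

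**Figure D5:**
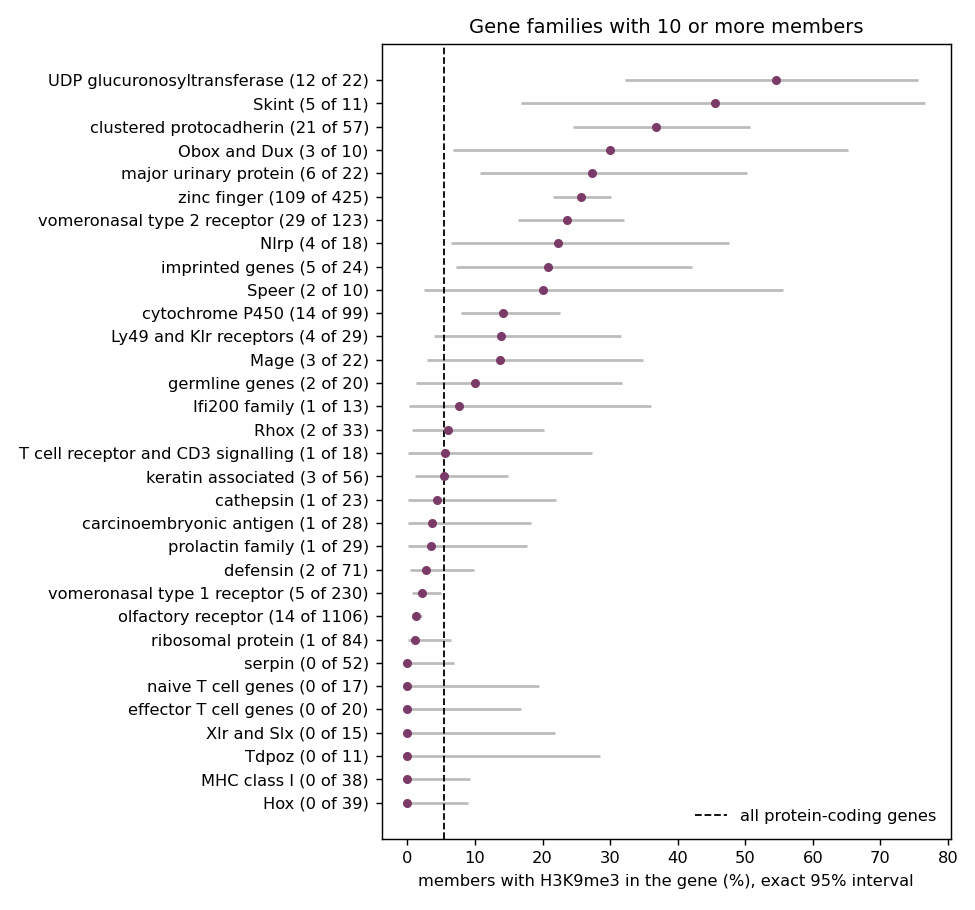
Share of members with at least 1 bp of H3K9me3 in the gene (x axis, percent) for the protein-coding families with 10 or more members, with exact 95% intervals that cover counting error only. The dashed line is the 5.43% of all 21631 protein-coding genes; zinc finger genes stand at 25.6% and olfactory receptors below the line.

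In the germline, Obox and Dux, Nlrp and imprinted lists 2 to 5 members each were marked, against 5.43% of all protein-coding genes. Of 20 germline genes, Tdrd1 (923 bp) and Rpl10l (457 bp) were marked (10%). The exact interval of that share, 1.23 to 31.7, holds the 5.43%. Of 10 Obox and Dux homeobox genes of the early embryo, Duxf3 (1954 bp), Obox2 (932 bp) and Obox3 (860 bp) were marked (30%, 6.67 to 65.2). Of 18 Nlrp genes 4 were marked (22.2%, 6.41 to 47.6), led by the oocyte gene Nlrp4e (1588 bp). Of 24 imprinted genes 5 were marked (20.8%, 7.13 to 42.2). They were Snrpn (3991 bp in 6 peaks), Magel2 (1140 bp), Usp29 (922 bp), Ndn (511 bp) and Impact (206 bp). Rhox genes were marked in 2 of 33 cases (6.06%), Xlr and Slx genes in 0 of 15 and Tdpoz genes in 0 of 11. Snrpn, Magel2 and Ndn belong to the Prader-Willi region that also holds Snhg14. The Snrpn span overlaps Snhg14, so its peaks count for both.

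Few genes of the T cell lists met an H3K9me3 peak. None of 17 naive T cell genes was marked, and 16 of them had an RNA polymerase II peak. None of 20 effector T cell genes was marked either, and 1 of them had an RNA polymerase II peak. Genes without H3K9me3 thus had RNA polymerase II in nearly all of the first list and lacked a peak of it in nearly all of the second. Among all protein-coding genes 37% had such a peak in or within 3000 bp of the gene. Of 18 T cell receptor and CD3 signalling genes 1 was marked, Cd4, with 287 bp in 1 peak (chr6:124879917-124880203), and 17 had RNA polymerase II. No member was marked among 38 MHC class I, 39 Hox, 52 serpin, 15 Xlr and Slx, 11 Tdpoz or 9 Schlafen genes. At the 5.43% of all protein-coding genes, lists this short would hold few marked members, so these counts set them apart from no other genes. Ddx55 had 0 H3K9me3 peaks and 1 RNA polymerase II peak.

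Promoters were rarely covered. An H3K9me3 peak met 93 of 21045 promoter windows of protein-coding genes (0.442%), belonging to 78 genes, and 47 windows lay wholly in a peak. The marked windows had a median GC content of 48.3% against 56.7% over all, and a median of 4 CpG against 13. Those with 10 or more CpG were 21.5% of the marked windows and 57.3% of all. The RNA polymerase II list met 3.23% of marked windows and 25.5% of all. For 46 long non-coding RNA genes with marked windows the direction was the other way, at 51.2% GC against 48.3%. Near-identical windows elsewhere, at 90% identity or more, were found for 38.7% of marked protein-coding windows (exact interval 28.8 to 49.4) and 4.90% of all, and for 14.6% and 1.86% of long non-coding RNA windows. Some genes have several nearly coincident windows, such as Mup-ps16 with 9 marked ones, so these windows are not independent. With 1 window per gene the protein-coding shares were 38.5% of 78 marked genes (27.7 to 50.2) and 5.51% of all. The Speer4c and Vmn1r149 windows printed above are among them.

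Short motifs were searched on both strands of the 300-base windows, and a match is only a description of the letters. CCAAT was in 60.2% of marked protein-coding windows and 38.5% of all, and TATAAA in 19.4% and 12.7%. CCGCCC, the letters of GC boxes, was in 23.7% and 46.7%, and TGCCGC in 6.45% and 14.3%. With 1 window per gene CCAAT was in 59.0% and 39.3%, TATAAA in 19.2% and 13.4%, CCGCCC in 26.9% and 46.4%, and TGCCGC in 5.13% and 14.0%. The 2 motifs that contain CpG were less frequent in the windows that also held fewer CpG.

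Few H3K9me3 peaks met a peak of another list, and H3K9me3 itself covered only 0.5% of the sequence. The overlap to be expected from coverage and peak width was not computed, so these shares show neither avoidance nor attraction. Of the 16161 H3K9me3 peaks 87 (0.538%) shared at least 1 bp with an RNA polymerase II peak, 262 (1.62%) with an R-loop peak and 123 (0.761%) with a DDX55 peak. From the other side these were 0.826% of 10890 RNA polymerase II peaks, 18.1% of 1465 R-loop peaks and 65.2% of 210 DDX55 peaks. Peaks in runs met DDX55 in 5.56% of cases (exact interval 4.14 to 7.28) and lone peaks in 0.388% (0.278 to 0.528). For RNA polymerase II the shares were 2.72% and 0.379%. For R-loop peaks they were 2.72% (1.75 to 4.02) and 1.81% (1.56 to 2.08), whose intervals overlap. Peaks in runs were also wider, at the medians given above, and the part of width in these shares was not tested.

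Marked protein-coding genes carried RNA polymerase II less often than protein-coding genes as a whole. A peak of it lay in or within 3000 bp of 226 of 1174 marked genes (19.3%) and of 37% of all protein-coding genes. The difference had the same sign in every length class: 7.79% against 25.6% up to 10 kb, 23.1% against 44.5% from 10 to 100 kb, 22.6% against 39.6% from 100 to 500 kb, and 11% against 17.2% above 500 kb. The exact intervals overlapped only above 500 kb (6.68 to 16.9 and 12.5 to 22.7). Over all lengths together, DDX55 and R-loop peaks were more frequent in marked genes, with 3.66% of marked genes against 0.421% of all for DDX55, and 8.35% against 1.81% for R-loop. By length, the R-loop intervals overlapped above 500 kb, at 19.6% of marked and 18.9% of all, and from 100 to 500 kb, at 9.92% and 7%. They did not overlap from 10 to 100 kb, at 4.66% and 1.34%, or up to 10 kb, at 4.55% and 0.517%. For DDX55 the shares were 6.49% against 0.323% up to 10 kb, 3.64% against 0.332% from 10 to 100 kb and 3.58% against 1.14% from 100 to 500 kb. Above 500 kb DDX55 stood at 1.23% of marked and 1.32% of all. The marked genes with RNA polymerase II and most covered bp were Sfi1, Sp140, Gm37013, Gm38666 and Gm38667.

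At 17 places an H3K9me3 peak met peaks of all the other lists. They included the widest peak (chr9:3012237-3026002), 2 peaks in Sfi1, 2 at Duxf3 and LOC100504180 on chromosome 10, the 6001-bp peak in Snhg14 at chr7:59765831-59771831 and the 287-bp peak in Cd4. The sources used here do not say whether the authors filtered such places.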

How the data were processed

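CUT&Tag was done on CD4+ naive T cells, and each target has 1 peak list, deposited by the authors as coordinates (another unit than counts or signal) with no score. MACS3 3.0.0b1, ChIPseeker 1.30.3, Bowtie2 2.5.0, fastp 0.12.4 and SAMtools 1.15.1 are named with mm10, per the submitters' processing notes. The sources used here do not state thresholds, how samples were merged, controls or filters on regions. Depth per sample is unknown.

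Peaks were joined to 49554 genes of the RefSeq table of GRCm38.p6 (gene spans without exons) with an overlap of at least 1 bp, in numpy 2.4.6, pandas 2.3.3 and scipy 1.17.1 under Python 3.11.15. Strand came from the RefSeq promoter table, which matched 26794 genes. Overlaps were checked with bedtools 2.31.1 and tested on simulated data. Exact Clopper-Pearson 95% intervals cover counting error only, and neither peaks nor genes are replicates. No test was run.

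Members, gene lists and the rule for named genes were chosen with earlier results of these data known. That rule took the 20 protein-coding genes, 10 non-coding RNA genes and 10 pseudogenes with most covered bp, the 10 protein-coding genes with the largest covered share, the top gene of each chromosome, genes of the 10 largest runs, the 3 leading marked members of each family, and Ddx55. Other genes named were chosen after their values were seen, among them the zinc finger genes named for their last 3 kb, the marked genes with RNA polymerase II, the genes of the printed promoters and the antigen receptor loci. Alternatives changed the overlap, the peak width, the genes used, the run definition and the windows.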

Additional observations from a re-analysis of the deposited data

How the results depend on the processing

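Marked protein-coding genes numbered 1174, but 348 with at least 5% of the span covered and 506 among genes that overlap no other gene, which were 3.94% of 12856. Non-coding RNA genes numbered 615, but 380 with at least 500 bp covered, 196 with 5%, 380 with the wider 50% of peaks and 307 without overlapping genes. Pseudogenes numbered 552, or 342 with at least 500 bp. Runs numbered 110 (5.46% of peaks), against 27 (0.953%) with gaps up to 5 kb, 246 (12.7%) up to 20 kb, 26 (2.28%) with 10 or more peaks, and 47 (4.20%) with the wider 50%. Covered bp outside genes were 70.6%, or 69.4% with the wider 50% and 80.3% outside protein-coding genes alone. With the wider 50%, peaks meeting RNA polymerase II were 0.742%, R-loop 1.94% and DDX55 1.20%. Chromosome 3 replaced chromosome 4 as the highest without the 20 fullest windows. Zinc finger genes marked were 97 or 99 under their alternatives. Chosen after seeing the data, the last 3 kb of zinc finger genes stood at 57.4 kb per Mb with the wider 50%, marked promoter windows with a near-identical copy at 38.5% with 1 window per gene, and gaps of 4 to 8 kb at 408 per kb without peaks in runs. No paired analysis was possible because the lists hold no value per sample, and no replicate could be left out for the same reason. The lists give no depth, so a gene without a peak cannot be called free of the mark.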
